A study of Mus musculus with 16 samples.

Results

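Levels of 10 genes were followed in a mouse macrophage line: the IgG receptors Fcgr1, Fcgr2b, Fcgr3 and Fcgr4, the signalling adaptors Fcer1g, Tyrobp and Cd247, and the TREM receptors Trem1, Trem2 and Treml1. The 10 genes were chosen by name as one family of receptors and adaptors out of 27179 genes counted, at a time when their levels in all 4 groups were already known. Adjusted p-values are therefore given here only to set a difference against the spread between replicates, and the number of the 10 genes that changed is a description. All 10 genes passed the filter on low counts, Cd247 only through the groups where its reads were most.

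The cells were iBMDM, immortalised bone-marrow-derived macrophages, of the line labelled iBMDM MyD88-AGF with the genotype MyD88-AGF WT, which all 4 groups share. Cells given lipopolysaccharide (LPS, a bacterial glycolipid) at 10 ng/mL for 6 h were sorted by side scatter, the light deflected by a cell's internal structure, into responders (high side scatter, SSChi) and bystanders (low side scatter, SSClo). LPS-treated cells that passed the sorter ungated made the LPS pool, and ungated cells without LPS made the untreated group. The gated cells were collected first and the ungated cells later, so the order of collection goes with the gate. Each group had 4 libraries, 16 in all. All groups come from 1 line. Nothing in the labels shows that replicates were grown as separate cultures, and the p-values then describe spread between samples that may be technical replicates.

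Receptors for the Fc part of IgG let macrophages bind antibody-coated targets. Most of them carry no signalling tail of their own and pair with the FcR gamma chain, the product of Fcer1g, whose ITAM motif is phosphorylated by Src-family kinases and then binds the kinase Syk. The product of Fcgr2b is the exception among these 4 receptors: its own tail holds an inhibitory ITIM motif that recruits the phosphatase SHIP1. TREM1 and TREM2 signal through DAP12, the ITAM adaptor encoded by Tyrobp. In macrophages TREM1 is known as an amplifier of inflammatory signalling and TREM2 as a receptor for lipids and cell debris, while the product of Treml1, which has an ITIM, is best known from platelets. CD247, the zeta chain, is the ITAM adaptor of the T cell receptor.

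Total counts per library ran from 15287344 to 25193162. CPM below are a gene's counts set against its library's total after edgeR's TMM scaling, on a linear scale. None of 9 macrophage markers was at 0. Without Fcgr1, which is one of them, the other 8 summed to 3498 to 3530 CPM in untreated cells, 4273 to 4320 in the LPS pool, 3606 to 3633 in bystanders and 4448 to 4489 in responders. This sum thus moved with LPS and with the gate, though its genes did not all move in the same direction. Csf1r ran from 884 to 911 CPM in untreated cells and 543 to 557 in responders. Cd14 ran from 164 to 170 CPM in untreated cells and 766 to 781 in responders. The part of these markers in the results was not tested. In the T cell list 8 of 11 markers were at 0 in every library (Cd3d, Cd3e, Cd3g, Cd8a, Trac, Trbc1, Trbc2 and Cd2). In the NK cell list 4 of 8 were at 0 in every library (Ncr1, Nkg7, Gzma and Gzmb). Reads of the fibroblast gene Col1a1 in replicates 1 to 4 were 96, 39, 1185 and 72 in the LPS pool and 86, 28, 1385 and 76 in bystanders, and 297, 99, 365 and 144 in responders and 273, 99, 342 and 149 in untreated cells. Libraries of the same number thus held like numbers of these reads in the pool and bystanders, and in responders and untreated cells. Responders against bystanders and the pool against untreated each set 1 of these pairs of groups against the other. A difference between the pairs of groups could not be told apart from those comparisons. RNA of the neuronal gene Stmn2 reached 1 CPM in 6 libraries: replicates 3 and 4 of the LPS pool, replicates 3 and 4 of the bystanders, replicate 1 of the responders and replicate 1 of the untreated cells. Bystander replicates 3 and 4 also held 64.1 and 65.1 CPM of the cytokine gene Il1b, against 7.79 and 9.03 CPM in bystander replicates 1 and 2 and 3177 to 3334 CPM in responders. Calls of single genes that change without these libraries are given where they occur.

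The IgG receptors and their gamma chain are given first. Fcgr2b, Fcgr4, Fcgr3 and Fcer1g lie in that order within 273.8 kb of mouse chromosome 1, from chr1:170960558-170976071 (Fcgr2b) through chr1:171018926-171029761 (Fcgr4) and chr1:171051169-171065915 (Fcgr3) to chr1:171229572-171234349 (Fcer1g). Fcgr1 lies at chr3:96282909-96293969. Positions are those of RefSeq on GRCm38.p6 and span whole genes, introns included. The 250 bases upstream of a transcript start are shown for Fcgr1 and Fcgr4, whose levels were high in bystanders, and for Fcgr2b and Trem1, whose levels were not. Sequences are from RefSeq (GRCm38.p6), written 5′ to 3′ along the gene's strand, and capitals mark every match to 5 motifs searched on both strands.
Fcgr1, chr3:96293970-96294219, minus strand: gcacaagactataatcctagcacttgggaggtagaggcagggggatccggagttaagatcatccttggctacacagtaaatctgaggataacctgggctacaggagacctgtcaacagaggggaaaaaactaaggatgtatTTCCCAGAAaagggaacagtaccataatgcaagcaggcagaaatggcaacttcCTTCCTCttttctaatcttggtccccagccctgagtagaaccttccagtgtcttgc
Fcgr4, chr1:171018676-171018925, plus strand: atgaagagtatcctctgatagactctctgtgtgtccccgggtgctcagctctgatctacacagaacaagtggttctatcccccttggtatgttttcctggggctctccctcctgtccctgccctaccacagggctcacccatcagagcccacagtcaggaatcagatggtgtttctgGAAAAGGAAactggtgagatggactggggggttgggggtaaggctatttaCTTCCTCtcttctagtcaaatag
Fcgr2b, chr1:170976072-170976321, minus strand: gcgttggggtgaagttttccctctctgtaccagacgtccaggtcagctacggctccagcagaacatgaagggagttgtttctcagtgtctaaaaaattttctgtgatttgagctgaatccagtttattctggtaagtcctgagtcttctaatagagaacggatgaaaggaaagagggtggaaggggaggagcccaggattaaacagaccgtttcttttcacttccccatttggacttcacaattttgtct
Trem1, chr17:48232489-48232738, plus strand: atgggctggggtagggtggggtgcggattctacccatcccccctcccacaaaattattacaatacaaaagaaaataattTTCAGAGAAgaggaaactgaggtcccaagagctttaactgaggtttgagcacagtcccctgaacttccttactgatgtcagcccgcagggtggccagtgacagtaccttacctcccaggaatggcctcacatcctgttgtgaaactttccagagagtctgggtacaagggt

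The motifs were the interferon-gamma-activated site (GAS, TTCNNNGAA), the core of the interferon-stimulated response element (GAAANNGAA), the kappaB site (GGGANNTTC), the PU.1 site (GAGGAAG) and the C/EBP site (TTGCNNAA). Of 32851 RefSeq windows of the same length, 7.02% held the GAS letters, 7.13% the interferon-stimulated core, 3.23% the kappaB letters, 10.6% the PU.1 letters and 9.56% the C/EBP letters. In the windows shown, the Fcgr1 sequence held a GAS match that began 109 bases before the start and a PU.1 match at 56 bases, on the opposite strand. Fcgr4 held the interferon-stimulated core at 73 bases and a PU.1 match, also on the opposite strand, at 23 bases. Trem1 held a GAS match at 171 bases. The Fcgr2b window held none of the 5. Windows of Fcgr3, whose level in bystanders was above all other groups, are not shown. They held PU.1 and C/EBP matches but no GAS letters or interferon-stimulated core. The Trem2 window, also not shown, held a PU.1 match only. The windows shown were picked by level, and no link between motif and level was tested. A match is a description of letters, and no binding was measured here.

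Fcgr1 encodes the high-affinity IgG receptor CD64. It stood at 54.4, 54.0, 56.9 and 57.1 CPM in the untreated libraries and at 497, 497, 472 and 470 CPM in the LPS pool. The bystander libraries held 387, 392, 410 and 395 CPM, and the responder libraries 558, 574, 550 and 560 CPM. No 2 groups overlapped, and all LPS-treated libraries, bystanders included, stood far above the untreated ones. The fitted fold of Fcgr1 was 8.71 for the LPS pool against untreated (log2 3.12 ± 0.03, standard error) and 7.13 for bystanders against untreated (log2 2.83 ± 0.03). Between the sorted groups Fcgr1 was 1.41-fold higher in responders (log2 0.50 ± 0.02, adjusted p = 8.44e-30, edgeR's quasi-likelihood test, Benjamini-Hochberg adjusted across the 12589 genes tested, n = 4 per group). With unscaled library totals this log2 difference was 0.31.

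Fcgr4 encodes a gamma-chain-linked receptor of intermediate affinity, known for binding IgG2a and IgG2b. It held 39.9, 39.6, 38.2 and 36.1 CPM in untreated libraries and 294, 295, 286 and 294 CPM in the LPS pool. Bystanders held 258, 260, 257 and 264 CPM and responders 305, 311, 321 and 315 CPM. As for Fcgr1, the 4 groups did not overlap and the large step lay between untreated and every LPS-treated group. Bystanders stood 6.77-fold above untreated cells (log2 2.76 ± 0.03) and the pool 7.62-fold (log2 2.93 ± 0.03). The responders exceeded bystanders 1.20-fold (log2 0.27 ± 0.02, adjusted p = 1.30e-16), and with library totals in place of TMM scaling this log2 difference was 0.08.

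Fcgr2b, the inhibitory receptor, differed from both. Untreated libraries held 15.9, 17.3, 15.4 and 15.9 CPM, and the LPS pool 97.0, 104, 98.6 and 103 CPM. The bystanders held 25.5, 25.3, 29.8 and 29.6 CPM and the responders 110, 120, 117 and 117 CPM. Bystanders thus stood close to untreated cells without overlapping them, while the pool lay near the responders. Fcgr2b was 7.19-fold higher in responders than in untreated cells (log2 2.85 ± 0.05) and 1.73-fold higher in bystanders (log2 0.79 ± 0.06). Those 2 folds share the untreated control. Responders exceeded bystanders 4.16-fold (log2 2.06 ± 0.04, adjusted p = 9.45e-46). That contrast leaves out the untreated mean, though its scaling and spread were estimated over all 16 libraries. The 2 higher bystander libraries are replicates 3 and 4, which also held the higher Il1b, and without them the log2 fold of bystanders against untreated was 0.65 (adjusted p = 3.34e-12).

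Fcgr3 encodes the low-affinity activating receptor of the gamma-chain group and followed yet another order. It stood at 132, 122, 129 and 129 CPM in untreated libraries, 175, 173, 171 and 165 CPM in the LPS pool and 167, 174, 188 and 172 CPM in responders. Bystanders were highest, with 230, 227, 231 and 226 CPM, above every library of the other groups. The pool and responders overlapped (log2 difference 0.03, 95% interval -0.02 to 0.09, adjusted p = 0.432). Fcgr3 was 1.30-fold lower in responders than in bystanders (log2 -0.38 ± 0.03, adjusted p = 6.46e-20). Its rise in the LPS pool (log2 0.42 ± 0.03) depends on the scaling and was 0.09 with library totals alone. Fcgr2b and Fcgr3 are related in sequence and share 166 identical 50-base stretches among their annotated transcripts, 9.58% of those of Fcgr3, so some reads could have been assigned to either gene or to none. No such stretch was shared by Fcgr1 or Fcgr4 with another gene.

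**Figure D1:**
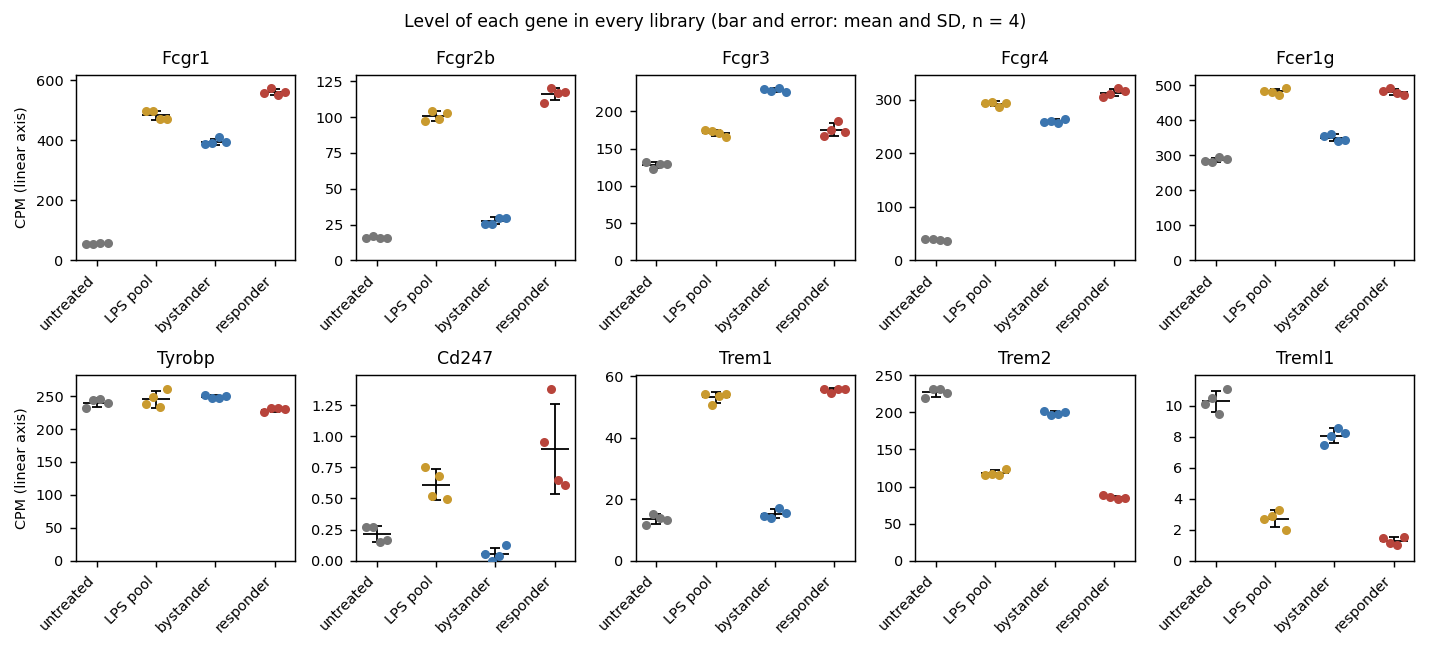
Level of each of the 10 genes in CPM on a linear axis from 0, 1 panel per gene, with 4 library points per group and the mean and SD in black. Bystander points of Fcgr1 and Fcgr4 sit with the other LPS-treated groups, those of Fcgr2b and Trem1 sit near the untreated points, and those of Fcgr3 lie above all other groups.

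Per kilobase of principal transcript, which allows levels of different genes to be set side by side, Fcgr3 was the most abundant of the 4 receptors in untreated cells at 95.2 CPM per kb. Fcgr4 followed at 30.6, Fcgr1 at 21.5 and Fcgr2b at 4.55 CPM per kb. In responders the order by level was Fcgr4 (249 CPM per kb), Fcgr1 (217), Fcgr3 (130) and Fcgr2b (32.7). In bystanders Fcgr2b stood at 7.78 CPM per kb against 207 for Fcgr4, 169 for Fcgr3 and 153 for Fcgr1. The order depends in part on which exons are counted as the length. With all annotated exons in place of the principal transcript Fcgr3 stood at 73.9 CPM per kb in untreated cells, 101 in responders and 132 in bystanders, there below Fcgr1. With either length the inhibitory receptor was the least abundant of the 4 in these 3 groups, at 2.78 CPM per kb in untreated cells and 4.76 in bystanders with all exons.

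Ratios of read counts within 1 library do not depend on how libraries are scaled. Reads of Fcgr2b over the summed reads of the 3 activating receptors ran from 0.0687 to 0.0800 in untreated libraries and reached 0.111 in the LPS pool. In bystanders the ratio was 0.0288 to 0.0334 and in responders 0.107 to 0.113. Bystanders thus held the lowest share of inhibitory receptor reads, below untreated cells. The ratio was 3.56-fold higher in responders than in bystanders (difference of log2 means 1.83, exact two-sided permutation test, p = 0.0286, n = 4 per group). This p is the smallest that 70 splits allow, and all 10 ratio tests made, 5 ratios in 2 comparisons, reached it (adjusted p = 0.0286). The levels of these genes were already known, so the p-values of the ratios are descriptions too. In responders against bystanders Fcer1g and Tyrobp, and Fcgr4 and Fcgr3, already differed in opposite directions without overlap. The p-values of those ratios were thus fixed in advance and add nothing. The ratio of Fcgr4 to Fcgr3 reads ran from 0.279 to 0.324 in untreated libraries, 1.11 to 1.17 in bystanders and 1.71 to 1.83 in responders. It was 5.71-fold higher in the pool than in untreated cells (log2 difference 2.51) and 1.57-fold higher in responders than in bystanders (0.65).

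**Figure D2:**
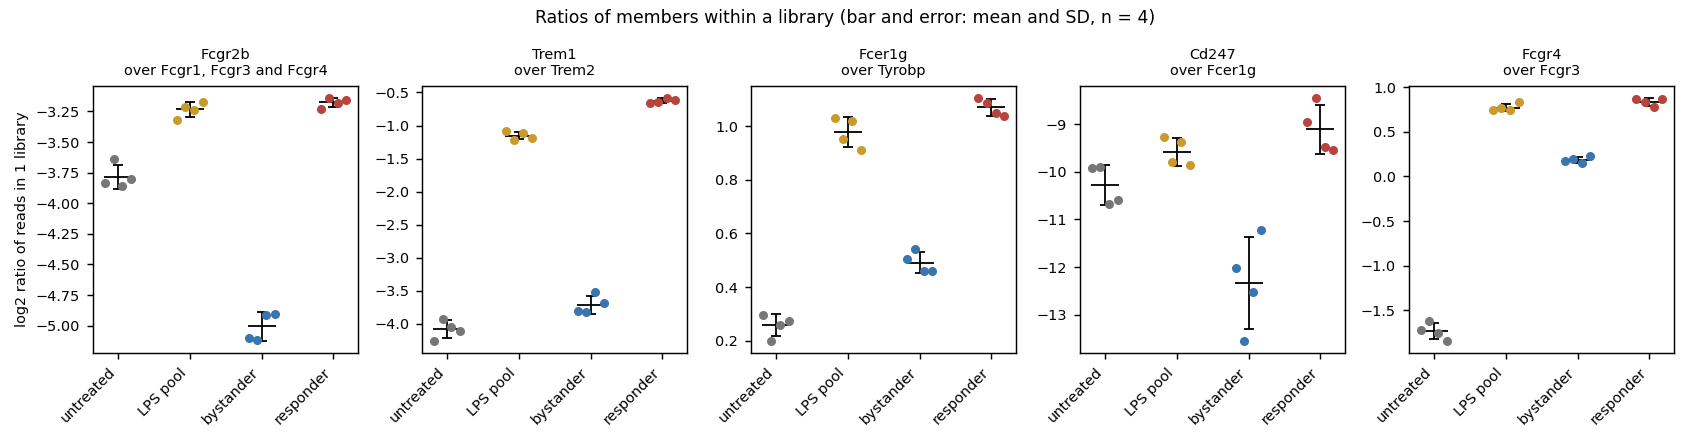
Log2 ratio of reads of the named genes within each library, 4 points per group, with mean and SD in black and a separate vertical axis per panel that does not start at 0. The Fcgr2b panel places bystanders lowest, at a mean of -5.01 against -3.78 in untreated cells, and the Trem1 over Trem2 panel separates the pool and responders from the other groups.

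Among the adaptors, Fcer1g held 285, 280, 294 and 290 CPM in untreated libraries and 484, 482, 473 and 492 CPM in the LPS pool. Bystanders held 356, 361, 341 and 344 CPM and responders 484, 492, 479 and 472 CPM. The pool and responders overlapped (log2 difference 0.00, 95% interval -0.04 to 0.04, adjusted p = 0.939), and bystanders lay between them and untreated cells. Fcer1g was 1.38-fold higher in responders than in bystanders (log2 0.46 ± 0.02, adjusted p = 1.86e-28) and 1.22-fold higher in bystanders than in untreated cells (log2 0.29 ± 0.02). Both differences were smaller with library totals alone, at 0.27 and 0.09. With that scaling responders were called lower than the pool, by a small difference (log2 -0.06, adjusted p = 0.0251). Mast cells also use the gamma chain, and 3 of 8 mast cell and basophil markers (Ms4a2, Mcpt4 and Mcpt8) were at 0 in every library. The summed level of that list ran from 0.292 to 0.453 CPM in untreated cells, 43.4 to 46.7 in the pool, 4.92 to 7.52 in bystanders and 50.1 to 56.3 in responders, nearly all of it Hdc, the histidine decarboxylase gene. Its part in the Fcer1g levels was not tested.

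Tyrobp, at chr7:30413782-30417582, encodes the DAP12 adaptor of the TREM receptors and stayed within a narrow band. It stood at 232, 244, 246 and 240 CPM in untreated libraries, 237, 249, 233 and 261 CPM in the LPS pool, 251, 248, 248 and 251 CPM in bystanders and 225, 232, 232 and 230 CPM in responders. Responders lay below bystanders in all 4 libraries, by 1.09-fold (log2 -0.12 ± 0.02, adjusted p = 2.24e-05), and by -0.31 on the log2 scale with library totals alone. The pool overlapped untreated cells (log2 0.03, 95% interval -0.02 to 0.08, adjusted p = 0.288). Its direction against untreated cells depends on the scaling: with library totals alone the log2 difference was -0.30 for the pool and -0.14 for bystanders. The ratio of Fcer1g to Tyrobp reads, which needs no scaling, was 1.15 to 1.23 in untreated libraries, 1.37 to 1.46 in bystanders, 1.88 to 2.04 in the pool and 2.05 to 2.15 in responders. Per kilobase of principal transcript Fcer1g and Tyrobp stood at 426 CPM per kb each in untreated cells and at 715 and 407 in responders. With the length of all annotated exons these values were 329 and 360 in untreated cells and 551 and 344 in responders.

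Cd247, at chr1:165779952-165871153, was counted with few reads: 6, 6, 3 and 4 in untreated libraries, 13, 11, 11 and 7 in the LPS pool, 1, 0, 1 and 3 in bystanders and 20, 28, 13 and 13 in responders. Its level did not exceed 1.38 CPM in any library. Summed over libraries, 74 reads in responders stood against 5 in bystanders, a ratio of 15.0 once library sizes were taken into account (95% interval 6.16 to 47.7, which covers counting error only). The edgeR fit gave log2 3.79 ± 0.51 for this difference (adjusted p = 1.77e-09), and bystanders stood below untreated cells (log2 -1.77 ± 0.64, adjusted p = 0.0129). That second difference was not called without the libraries that held Stmn2 (log2 -2.52, adjusted p = 0.0647). Cd247 passed the filter on low counts through responders and the LPS pool, where its reads were most. Bystanders and untreated cells held too few reads to pass it, so these p-values are no support for the differences. With a filter of 1 CPM Cd247 was not tested. Cd247 overlaps the gene Pou2f1 on the opposite strand and shares 55.9% of its 50-base stretches with other genes, so without knowledge of the strand used in counting the reads cannot be assigned to Cd247 with certainty. The T cell receptor chains and CD3 genes with which the zeta chain works in T cells were at 0. The summed T cell list, mostly Lck, ran from 5.45 to 6.49 CPM in bystanders and 5.52 to 6.47 CPM in responders. Within it Lck ran from 3.73 to 4.67 CPM in bystanders and 4.85 to 5.48 in responders. Cd4 went the other way, from 1.49 to 1.82 CPM in bystanders and 0.398 to 1.14 in responders. The part of these markers in the Cd247 levels was not tested. Pou2f1 itself stood at 8.82 ± 0.88 CPM (SD, n = 4) in responders and 9.33 ± 0.95 CPM in bystanders (log2 -0.09, adjusted p = 0.396). With library totals alone Pou2f1 was called lower in responders (log2 -0.28, adjusted p = 0.00491).

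The TREM genes lie together within 134.5 kb of chromosome 17, with Trem1 at chr17:48232713-48246927, Trem2 at chr17:48346401-48352276 and Treml1 at chr17:48359916-48367176, 7.6 kb beyond Trem2. Trem1 held 11.5, 15.2, 14.0 and 13.1 CPM in untreated libraries and 54.4, 50.6, 53.5 and 54.3 CPM in the LPS pool. Bystanders held 14.5, 13.9, 17.1 and 15.6 CPM and responders 56.0, 54.5, 56.0 and 55.9 CPM. Bystanders overlapped untreated cells, and the pool and responders stood apart from both. Trem1 was 3.60-fold higher in responders than in bystanders (log2 1.85 ± 0.06, adjusted p = 3.18e-38) and 3.94-fold higher in the pool than in untreated cells (log2 1.98 ± 0.06, adjusted p = 4.18e-39). Against untreated cells bystanders were 1.15-fold higher (log2 0.20 ± 0.07, adjusted p = 0.00889). This small difference was not called with library totals alone (adjusted p = 0.951), without bystander replicate 3 (0.116), without untreated replicate 1 (0.107), without the libraries that held Stmn2 (0.955) or without bystander replicates 3 and 4 (0.489).

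Trem2 moved the other way. It stood at 219, 232, 232 and 226 CPM in untreated libraries and 202, 197, 197 and 200 CPM in bystanders. The LPS pool held 116, 117, 116 and 124 CPM and the responders 88.1, 85.3, 83.7 and 85.2 CPM. The 4 groups did not overlap, and responders were lowest, below the pool. Trem2 was 2.33-fold lower in responders than in bystanders (log2 -1.22 ± 0.03, adjusted p = 3.06e-45), 1.93-fold lower in the pool than in untreated cells (log2 -0.95 ± 0.03, adjusted p = 2.68e-40) and 1.38-fold lower in responders than in the pool (log2 -0.46 ± 0.03). In bystanders it was 1.14-fold below untreated (log2 -0.19 ± 0.02), and with library totals alone that difference was -0.38.

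Treml1 followed the order of Trem2 at a lower level. Untreated libraries held 10.1, 10.5, 9.46 and 11.1 CPM, bystanders 7.44, 8.06, 8.54 and 8.24, the LPS pool 2.71, 2.90, 3.29 and 1.97, and responders 1.47, 1.14, 1.05 and 1.54 CPM. The groups did not overlap. The responder levels rest on 21 to 33 reads per library, against 130 to 220 reads in bystanders. Treml1 was already known to have one of the larger folds for responders against bystanders and for the pool against untreated, so its folds of 6.19 lower (log2 -2.63 ± 0.14) and 3.75 lower (log2 -1.91 ± 0.12) are given without a test. The difference of bystanders from untreated cells was log2 -0.35 ± 0.10, and -0.54 with library totals alone. Of 11 platelet and megakaryocyte markers, Gp1bb was at 0 in every library and 4 passed the filter on low counts. The summed list, mostly the chemokine gene Pf4, ran from 62.6 to 67.0 CPM in untreated cells, 67.7 to 78.5 in the LPS pool, 61.9 to 69.6 in bystanders and 74.8 to 76.5 in responders. In responders against bystanders Pf4 was higher (log2 0.36, adjusted p = 1.58e-11), and Itgb3, an integrin chain that platelets share with other cells, was lower (log2 -1.56, adjusted p = 1.41e-17), from 142 to 216 reads in bystanders and 44 to 73 in responders. Gp1ba, a subunit of the platelet von Willebrand factor receptor, was also lower (log2 -0.70, adjusted p = 0.0268), a call lost without the libraries that held Stmn2 (0.145) or without bystander replicates 3 and 4 (0.0932). In the pool against untreated Itgb3 and Gp1ba were lower too (log2 -0.71 and -1.20). In bystanders, where Treml1 was below untreated cells, Itgb3 was above them, at 7.68 to 8.85 CPM against 4.63 to 5.40. Gp1ba overlapped there, at 1.09 to 1.20 CPM in bystanders and 1.18 to 1.80 in untreated cells. The part of these markers in the Treml1 levels was not tested.

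Reads of Trem1 over Trem2 gave the widest of the within-library ratios that did not rest on a few reads. The ratio ran from 0.0523 to 0.0656 in untreated libraries, 0.0705 to 0.0868 in bystanders, 0.431 to 0.470 in the LPS pool and 0.636 to 0.668 in responders. Responders exceeded bystanders 8.49-fold (difference of log2 means 3.09, exact permutation p = 0.0286, the smallest possible) and the pool exceeded untreated cells 7.62-fold (2.93). Levels of both genes already did not overlap in these comparisons, in opposite directions, so that p was fixed in advance and adds nothing to them. Which of the pair was the more abundant in responders depends on the length used. Per kilobase of principal transcript Trem2 stood at 78.7 CPM per kb against 18.6 for Trem1, and per kilobase of all annotated exons at 17.3 against 18.6.

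Between the 3 TREM members lie Trem3, Treml4, Treml2 and B430306N03Rik. Trem3, a relative of Trem1 that pairs with DAP12, rose from 1.98 ± 0.46 CPM in untreated cells to 5.68 ± 0.61 in the pool (2.83-fold) and was higher in responders than in bystanders (log2 1.22 ± 0.13, adjusted p = 3.88e-12). Treml4 was likewise higher in responders (log2 0.73 ± 0.21, adjusted p = 0.00193), at 2.15 CPM against 1.31. That call was lost without the libraries that held Stmn2 (log2 0.51, adjusted p = 0.110) and without bystander replicates 3 and 4 (0.55, 0.0698). Treml2 rose in the pool, from 45.8 ± 1.98 to 159 ± 2.26 CPM (log2 1.80 ± 0.03), yet was slightly lower in responders than in bystanders (log2 -0.11 ± 0.03, adjusted p = 0.00025). B430306N03Rik, named here for its place in the cluster, stood at 12.5 CPM in untreated cells, 86.8 in the pool, 105 in bystanders and 101 in responders (responders against bystanders log2 -0.06, adjusted p = 0.0975). Of the 7 genes, Trem1 and Trem3 were higher in responders and Trem2 and Treml1 lower. The differences of Treml2 and B430306N03Rik were small with TMM scaling. With library totals alone both were called lower in responders (log2 -0.30 and -0.25, adjusted p = 1.33e-15 and 2.43e-10).

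**Figure D3:**
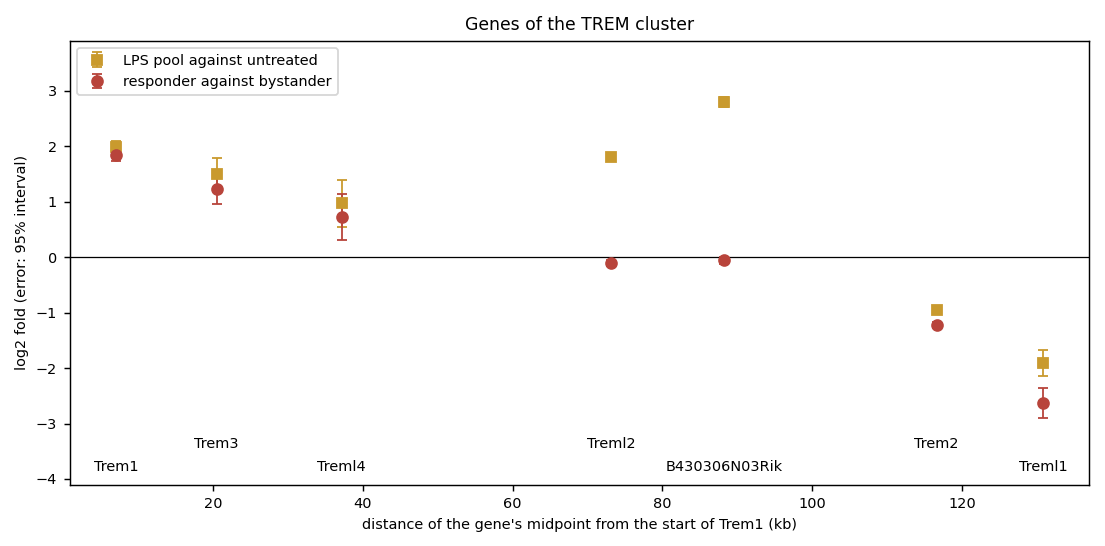
Log2 fold of the 7 genes of the TREM cluster against the distance of each gene's midpoint from the start of Trem1 in kb, for the LPS pool against untreated (squares) and responders against bystanders (circles), with bars of the 95% interval. The middle genes Treml2 and B430306N03Rik lie at 1.80 and 2.80 for the LPS pool and near 0 for responders against bystanders.

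Counted over the 10 genes, 6 were higher and 4 lower in responders than in bystanders at an adjusted p under 0.05, where over all 12589 genes tested 34.7% were higher and 35.3% lower. For the LPS pool against untreated, 7 were higher and 2 lower (background 34.1% and 37.8%). Responders against untreated gave 7 and 3 (36.5% and 38.5%), and bystanders against untreated gave 6 and 3 (34.1% and 32.9%). Against the LPS pool, 3 were higher and 3 lower in responders (16% and 9.49%), and 3 higher and 6 lower in bystanders (34.1% and 32.9%). Since the genes were chosen with these values known, nothing is read from the counts. The median log2 fold of the 10 was 0.36 for responders against bystanders, where the median of all genes tested was -0.01, and 1.11 for the pool against untreated, where that of all genes was -0.03. In bulk RNA a lower level can come from fewer cells that carry a transcript or from less of it per cell, and these cannot be told apart.

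Set side by side, the folds against the shared untreated group differed in how much of the responder level the bystanders reached. Fcgr1 stood at log2 3.33 in responders and 2.83 in bystanders, and Fcgr4 at 3.03 and 2.76. Fcgr2b stood at 2.85 and 0.79, and Trem1 at 2.05 and 0.20. Fcgr3 alone of the 4 receptors had the larger value in bystanders, 0.83 against 0.45, and with library totals alone 0.64 against 0.07. Trem2 stood at -1.41 in responders and -0.19 in bystanders, and Treml1 at -2.98 and -0.35. The order of the LPS pool between the sorted groups was not the same for all. Its mean lay between those of bystanders and responders for all but Fcgr3 and Fcer1g. For Fcgr3 it lay below both (171 CPM against 175 in responders), and for Fcer1g above both (483 against 482 CPM). With TMM scaling neither gene differed between pool and responders beyond the spread, while with library totals alone Fcer1g was called lower in responders (log2 -0.06).

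**Figure D4:**
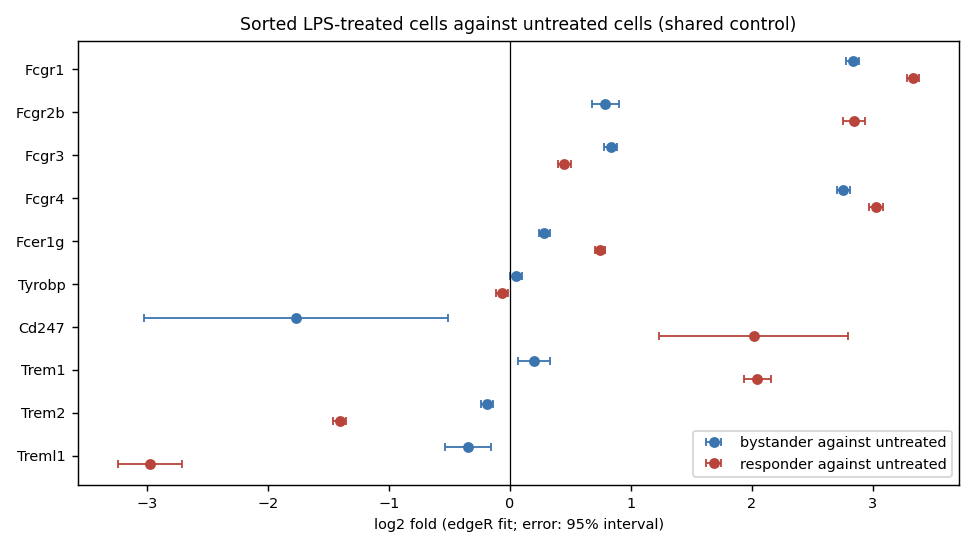
Log2 fold of each of the 10 genes in bystanders and in responders, both against the same untreated libraries, with bars of the 95% interval from the edgeR fit. Fcgr1 and Fcgr4 have both points between 2.76 and 3.33, while the points of Fcgr2b, Trem1, Trem2 and Treml1 lie far apart and those of Cd247 carry the widest bars.

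The genes whose levels ran most like each receptor's were found by Pearson correlation of log2 CPM over the 16 libraries, among 9602 other genes with a mean of at least 5 CPM. The 16 points share 4 group means, so high values are common and no p is given. For Fcgr1 these were Ifi204 and Irf7 (both r = 0.999), and for Fcgr4 Usp18 and Ccl12 (both 0.999). For Fcgr2b they were Ptgs2 (0.999) and Tnf (0.999), and for Trem1 Pilra (0.997) and Rhog (0.996). Fcgr3 ran most like Tlr7 and Ogfrl1 (both 0.992), and Fcer1g like Slc2a6 and Blvrb (both 0.995). Trem2 ran most like Asb4 and Ptgs1 (both 0.995) and Treml1 like Slc6a17 (0.987) and Wdr6 (0.986). Tyrobp, whose level varied least, reached 0.861 with S100a4 and 0.834 with Zfp511. For Cd247 the closest were Hmgxb3 (0.967) and Ckap2l (0.966), from the few reads given above.

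Other genes of the same pathway were taken from lists and described by count and median. Of 11 other Fc receptor genes 3 passed the filter, and all 3 were lower in responders than in bystanders (median log2 -1.05, all genes -0.01; 35.3% of all genes were lower). Trim21, a cytosolic antibody receptor and ubiquitin ligase, was the most abundant: 12.2 ± 1.39 CPM in untreated cells, 63.1 ± 3.24 in the pool, 202 ± 1.21 in bystanders and 73.5 ± 1.87 in responders. Its log2 difference between responders and bystanders was -1.46 ± 0.03 (adjusted p = 1.19e-45). Like Fcgr3 it had its highest level in bystanders, by a wider margin. Fcrl1 was lower in responders (log2 -1.05) and in the pool (-0.89), and Fcgrt, the neonatal Fc receptor, was lower in responders (-0.96). Fcrlb, an Fc-receptor-like gene looked at outside this list, went the other way from few reads. It stood at 1.71 ± 0.26 CPM in responders (29 to 44 reads) and 0.54 ± 0.18 CPM in bystanders (5 to 17 reads).

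Among 21 tested receptors other than TREMs that pair with ITAM adaptors, 12 were higher and 6 lower in responders than in bystanders (median 0.34), where 34.7% of all genes were higher and 35.3% lower. In the pool against untreated cells 12 were higher and 4 lower (median 0.47; 34.1% and 37.8% of all genes). With library totals alone both comparisons gave 10 higher and 7 lower (medians of 0.15 and 0.15). Of all genes, that scaling called 20.5% higher and 53.2% lower in responders against bystanders and 17.6% higher and 63.8% lower in the pool against untreated. Clec4e, the Mincle receptor for mycobacterial glycolipids, which signals through the gamma chain, stood at 248 ± 1.95 CPM in untreated cells, 1739 ± 31.4 in the pool, 329 ± 12.7 in bystanders and 2082 ± 41.8 in responders. Its order of groups was that of Trem1, with bystanders near untreated cells. Clec4d, its partner, was 2.04-fold higher in responders than in bystanders, and Pilrb1, a DAP12-linked receptor, 8.60-fold.

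Of 30 tested kinases and adaptors downstream of ITAMs, 14 were higher and 13 lower in responders than in bystanders (median 0.05), a split that turned to 12 and 15 (median -0.14) with library totals alone. These counts stand beside 34.7% and 35.3% of all genes, and 20.5% and 53.2% with library totals alone. In the pool against untreated, 15 were higher and 12 lower (median 0.12), which turned to 14 and 16 (median -0.21) with library totals alone (34.1% and 37.8% of all genes, then 17.6% and 63.8%). Lcp2, which encodes the adaptor SLP-76, was 3.44-fold higher in responders than in bystanders, and Prkcd, a protein kinase C, 1.96-fold.

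ITIM receptors and inhibitory phosphatases, the group to which Fcgr2b belongs by function, had 26 tested genes, of which 17 were higher and 5 lower in responders than in bystanders (median 0.28). In the pool against untreated, 16 were higher and 6 lower (median 0.45). With library totals alone these became 13 and 9 (median 0.09), and 14 and 11 (median 0.12). The shares of all genes are those given above for the same comparisons and scalings. Pilra, an ITIM receptor, had levels of 12.6 ± 0.72 CPM in untreated cells, 17.0 ± 1.67 in bystanders, 157 ± 2.67 in the pool and 174 ± 3.93 in responders. Cd300lf was 2.06-fold and Lilrb4a 1.78-fold higher in responders than in bystanders. Pilra and Pilrb1 are related in sequence, and some of their reads may not be assigned with certainty.

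**Figure D5:**
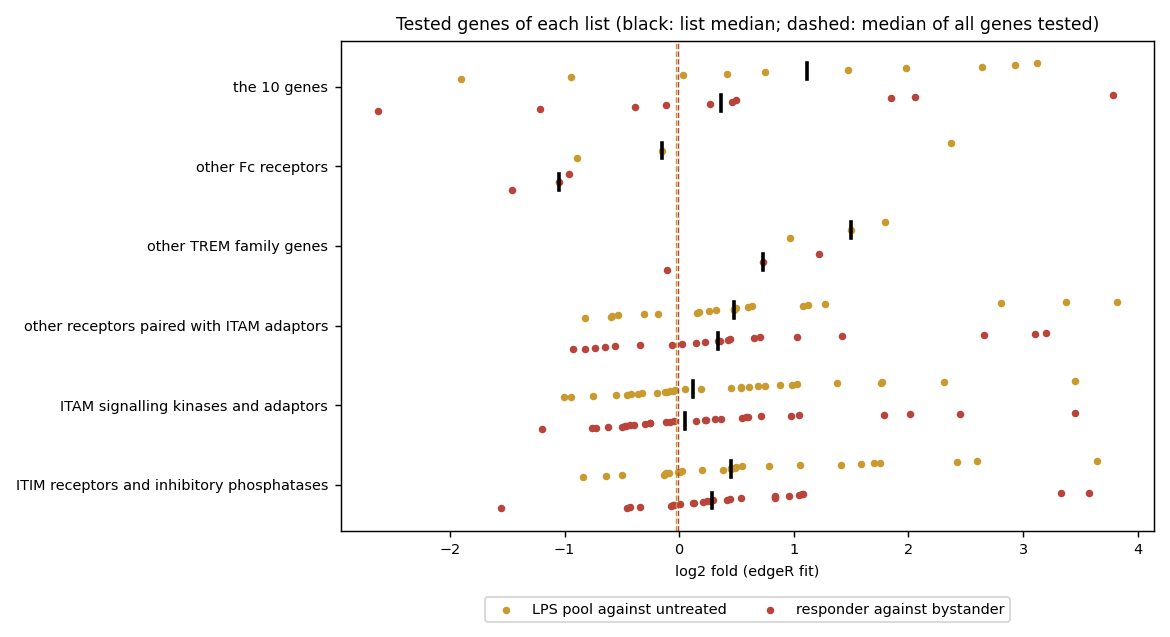
Log2 folds of every tested gene in the 10-gene family and in the 5 pathway lists, for the LPS pool against untreated and for responders against bystanders, with list medians in black and the medians of all genes tested as dashed lines. The 3 other Fc receptors all lie below 0 in responders against bystanders and the 3 other TREM genes all above 0 in the pool against untreated. Elsewhere the lists spread to both sides of 0. Medians for responders against bystanders run from -1.05 for the other Fc receptors to 0.73 for the other TREM genes, the latter 0.51 without the libraries that held Stmn2.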

How the data were processed

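RNA was sequenced in 16 libraries, 4 groups of 4. The authors deposited raw gene counts for all libraries in 1 table. Per the submitters' processing notes the tools were HISAT2 2.2.2, featureCounts 2.1.1, cutadapt 3.7 and fastp 1.1.0, on GRCm38 (mm10). How reads on either strand or with several matches were counted, and which annotation was used, is not given in the sources used here. Of 27179 Entrez identifiers, 25275 had a symbol in RefSeq's gene table of GRCm38.p6. The 1904 without one (0.399% of counts) stayed in the fit. The table had 3 empty columns and 0 from other samples.

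Counts were fitted in edgeR 4.0.16 (R 4.3.3) after filterByExpr and TMM scaling (factors 0.893 to 1.17), by a robust quasi-likelihood model with 1 mean per group over all 16 libraries. P-values are two-sided and Benjamini-Hochberg adjusted across 12589 genes. A gene was called at an adjusted p under 0.05, and adjusted p-values with no test named are from this fit. Levels are CPM with the SD over 4 libraries, and errors of log2 folds are standard errors. Ratios within a library used a pseudocount of 0.5 reads and an exact permutation test. Levels per kilobase used the GENCODE principal transcript, and all annotated exons as an alternative added after seeing the data. Depths of 15287344 to 25193162 counts limit precision mainly for Cd247 and Treml1.

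The members and lists were chosen with earlier results of these data known. By rule the text names all members, the 2 genes most like each, and from each pathway list, among genes of at least 1 CPM, those with the 3 smallest p for responders against bystanders and the 2 smallest for the pool against untreated. Markers, cluster neighbours, Pou2f1, Il1b and Fcrlb were named beside them. A gene that the rule names is not reported here. Simulated counts with known changes were used to test the fit. In 24 comparisons of replicates, chi-square per degree of freedom was 1.62 to 3.13, more than sampling noise gives. Alternatives were other scalings and filters, DESeq2 1.42.0, the compared groups alone, a replicate block and fewer libraries. A promoter window was matched for 9 of the 10 genes. Protein sequences were not used here.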

Additional observations from a re-analysis of the deposited data

Results flagged for a closer look

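Among 40 sets of 4 libraries screened (10 genes in 4 groups), 2 held a library whose gap to the nearest other passed Dixon's 95% critical value, where chance flags about 1 in 20 sets. Replicate 3 of the LPS pool was lowest for Fcgr4, at 286.3 CPM against 294.3 to 295.3 CPM in the other 3. Replicate 2 of the responders was lowest for Trem1, at 54.5 CPM against 55.9 to 56.0 CPM in the other 3. Both gaps are small beside the difference of these groups from untreated cells.

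In 2 genes all responder libraries lay on one side of the whole range of the untreated libraries and all bystander libraries on the other. The share of all genes with this pattern was not counted, so nothing is read from that count. For Tyrobp the difference itself, responders against bystanders, was -0.12 on the log2 scale (edgeR's quasi-likelihood test, adjusted p = 2.24e-05). Its highest responder library stood at 231.78 CPM and its lowest untreated library at 231.84 CPM. The side on which bystanders stand relative to untreated cells changes with the scaling. For Cd247 the difference was 3.79, from 74 reads in responders and 5 in bystanders. Bystander replicate 4 and untreated replicate 3 held 3 reads each.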

How the results depend on the processing

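Scaling had the widest effect. With library totals alone the median log2 fold of all genes moved from -0.01 to -0.20 for responders against bystanders and from -0.03 to -0.36 for the pool against untreated, and the share of calls that were higher fell from 49.5% to 27.8% and from 47.4% to 21.6%. Tyrobp then reversed, to -0.30 for the pool and -0.14 for bystanders against untreated, and Fcgr4 lost its calls for responders (adjusted p = 0.165) and bystanders (0.148) against the pool. The call of Tyrobp for responders against untreated was lost with DESeq2 (adjusted p = 0.120), relative log expression factors (0.0875), and without responder replicate 1 (0.0701), untreated replicate 2 (0.0615) or untreated replicate 3 (0.0798).

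Leaving out libraries by their summed neural markers could not be run, since that rule picked 0 libraries. The choices of libraries by Stmn2 and of bystander replicates 3 and 4 were made after seeing the data. With only the libraries that held Stmn2, responders against the pool was a fit of 1 responder library against 2 of the pool. The lone library is assumed to vary like the other groups, so no calls are read from that fit. Its log2 folds were, for example, 0.08 for Fcgr4 and -0.85 for Treml1, against 0.10 and -1.07 with all libraries. Without those libraries, the log2 ratio differences of responders against bystanders were 1.95 for Fcgr2b over the activating receptors, 3.20 for Trem1 over Trem2 and 0.53 for Fcer1g over Tyrobp. Without bystander replicates 3 and 4 the first 2 were 1.93 and 3.19.

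A replicate block gave the same calls for 59 of the 60 folds of the members and added that of Tyrobp for bystanders against untreated (log2 0.05, adjusted p = 0.0481). That difference was also called with DESeq2 (adjusted p = 0.0233), relative log expression factors (0.014), a filter of 1 CPM (0.0422), the compared groups alone (0.0198) and without untreated replicate 3 (0.0402). Over all genes, deviations of same-numbered libraries of different groups correlated from -0.017 to 0.175, so not every pair passed 0.1. Of 16 libraries, 6 correlated best with their own number. The reads of Col1a1 matched by number between the pool and bystanders and between responders and untreated cells. The block gave each number 1 effect across all 4 groups, so it does not model a match within those pairs of groups alone. Responders against bystanders and the pool against untreated both cross them. Over all alternatives 1007 folds of single members kept their side of the threshold and, where called, their direction (8 uncalled folds near 0 changed sign), 22 lost a call, 10 gained one and 2 reversed, and 204 counts or ratio differences stayed within 1.5 times or the replicate spread against 6 that moved. Depth limits Cd247, with 0 to 28 reads per library.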
